A study of Mus musculus with 2 samples.

Results

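The regions described here are 538 MEF2A peaks of mouse CH12.LX cells that lie away from promoters and hold only a looser spelling of the MEF2 element. They were taken from the 16839 peaks of the mm9 list, of which they are 3.19%, or 4.07% of its 13225 distal peaks. A peak was chosen when its summit lay more than 1 kb from every start site (TSS) of a GENCODE vM1 protein-coding transcript and when the 101 bp centred on the summit held a looser element on either strand but no strict one. The looser element is 10 bases long: a pyrimidine, T, A, then 4 bases that are each A or T, then T, A and a purine. The strict form begins with C and ends with G, so every member has a T at its start, an A at its end, or both. No signal value entered the choice. The members are set against 548 distal peaks with the strict form and 12139 distal peaks with neither form.

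The study is a chromatin immunoprecipitation and sequencing (ChIP-seq) experiment with an antibody against MEF2A in CH12.LX, an immortalized female mouse B-cell lymphoma line of strain B10.H-2aH-4bp/Wts. Its 1 group has 2 biological replicates from separate biosamples, with no treatment named in the labels and no second condition. The mm9 list was made by the authors from both replicates together. Read depth is unknown, the comparisons are between classes of peaks, and intervals and p-values count peaks or sequence matches, which are not replicates and, where they are neighbours, not independent.

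MEF2 proteins are MADS-box transcription factors that bind A/T-rich elements as dimers. They recruit class IIa histone deacetylases such as HDAC7, which repress, and release them upon calcium and kinase signals. In lymphocytes they are known for coupling antigen receptor signals to transcription, while in muscle and neurons they control differentiation genes.

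The 40 bp that follow show the element at strong members, from the mm9 reference (NCBIM37), 5′ to 3′ and oriented so that a single changed end is at the left. Capitals mark the 10-base element, and the lower-case letters are the 15 bp on each side. The members differ in the A/T bases in the middle, and the Antxr2 sequence is the one with both ends changed.
Zbtb20: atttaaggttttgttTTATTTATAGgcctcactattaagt
Erg: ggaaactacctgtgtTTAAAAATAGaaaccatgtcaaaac
Rnft1: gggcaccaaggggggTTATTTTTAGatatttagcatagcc
Dgkg: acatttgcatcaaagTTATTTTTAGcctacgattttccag
Hdac7: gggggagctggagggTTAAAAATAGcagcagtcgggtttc
Tnfaip3: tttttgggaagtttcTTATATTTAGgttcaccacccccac
Antxr2: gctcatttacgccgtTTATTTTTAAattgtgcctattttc
Zbtb16: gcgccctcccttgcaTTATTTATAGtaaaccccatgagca
Zfp36l1: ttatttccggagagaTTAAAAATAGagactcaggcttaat
Il13: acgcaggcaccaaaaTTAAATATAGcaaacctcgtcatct
Each is named by the gene of the nearest protein-coding TSS, which is a label of position and not a target. The Zbtb20 sequence is chr16:43383423-43383462 on the plus strand, Erg is chr16:95581950-95581989 on the minus strand, and Hdac7 is chr15:97655692-97655731 on the minus strand.

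The strongest peak of the whole mm9 list was a member. It lay in an intron of Zbtb20, a BTB zinc finger repressor of B-lineage and liver cells, 19095 bp downstream of the nearest TSS, and had an authors' signal value of 2598 at rank 1 of 16839. Its element was centred 30.5 bp from the summit. The next members were in an exon of Erg, an ETS-family factor of blood and endothelial cells (signal 980, rank 20), and outside genes near Rnft1, a RING finger membrane protein (signal 979, rank 21). A member at rank 45 lay in an intron of Dgkg, a diacylglycerol kinase (signal 790), and one at rank 47 lay 77326 bp from Cth, an enzyme of cysteine synthesis (signal 778). Rank 55 was in an intron of Hdac7, the class IIa deacetylase that MEF2 proteins bind (signal 742), 6209 bp from the TSS and with its element 4.5 bp from the summit. Members with signals between 582 and 602 lay near Lrmp, a lymphoid-restricted membrane protein, Tnfaip3, which encodes the NF-kB inhibitor A20, Odc1, the ornithine decarboxylase of polyamine synthesis, Cd97, an adhesion receptor, Antxr2, an anthrax toxin receptor, Zbtb16, the zinc finger factor PLZF, and Zfp36l1, an RNA-binding protein that promotes mRNA decay. The remaining 7 of the 20 strongest members lay near Il13, the cytokine, Plod2, a collagen lysyl hydroxylase, Ggta1, a galactosyltransferase, Nrf1, the nuclear respiratory factor, Sept11, a septin, Klhdc4 and Mettl21d, a protein lysine methyltransferase, with signals from 499 to 548. Of these 20 members, 19 had 1 changed end, 7 were in introns, and 4 were within 10 kb of a TSS.

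Signal values of all members ran from 39.2 to 2598, with a median of 85.2 and quartiles of 54.7 and 147. The median was 95.6 in strict-form peaks and 63.8 in peaks with no consensus. The strongest quintile of the list, its first 3367 peaks, held 192 of the 538 members (35.7%, Wilson 95% interval 31.8 to 39.8). That quintile held 237 of the 548 strict-form peaks (43.2%), 2631 of the 12139 peaks without the element (21.7%), and 23.1% of all distal peaks. The members exceeded the peaks without the element by 14.0 percentage points (95% interval 10.01 to 18.2, two-sided Fisher's exact test, adjusted p = 3.54e-12 over 7 comparisons). Of the peaks without the element, 635 had its middle bases but not both of its end bases. The strongest quintile held 38.9% of these 635 (95% interval 35.2 to 42.7), an interval that overlaps that of members. It held 20.7% of the other 11504 peaks without the element. A share this high was thus not particular to peaks with the looser element, and members were not tested against the 635. Among windows of 35 to 50% GC, a range that holds 396 members and was chosen after the data were seen, the shares were 35.4% in members and 25.7% in peaks without the element (adjusted p = 0.000263, Fisher's exact test). The median GC content of the 101-bp window was 41.6% in members, 43.6% in strict-form peaks and 47.5% in peaks without the element.

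Members were in the strongest quintile less often than strict-form peaks by 7.56 points (95% interval -13.3 to -1.75, adjusted p = 0.0496 over 9 comparisons, Fisher's exact test). This difference sits at the threshold: it missed it under 8 of 11 alternative settings, with adjusted p-values up to 0.647. Of distal peaks, members made up 6.27% of the strongest quintile, then 4.25%, 3.67%, 3.15% and 2.42% of the weakest. A further 50 peaks within 1 kb of a TSS had only the looser form, and 17 of them (34%, interval 22.4 to 47.8) were in the strongest quintile, against 8.49% of all 3614 promoter peaks.

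**Figure D1:**
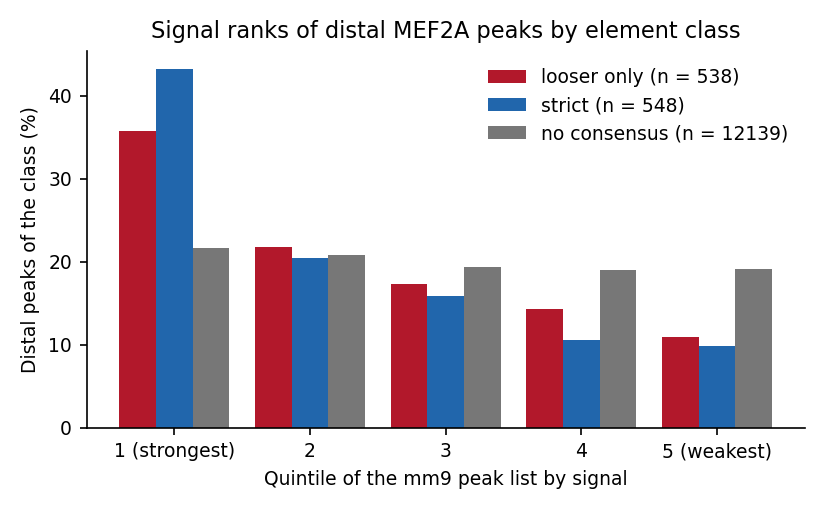
Share of each class of distal peaks (y axis, percent) in the 5 quintiles of the mm9 list by signal (x axis, strongest at the left), for looser-only, strict and no-consensus peaks. The looser-only bars fall from 35.7% to 11.0%, while the no-consensus bars stay between 19.0% and 21.7%.

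Signals on the 2 sides of the 1 kb limit are given without a test. The 12 members with summits 1000 to 1500 bp from a TSS had a median signal of 99.0, and the 12 looser-only peaks at 500 to 1000 bp, which are not members, had a median of 66.6, over overlapping ranges of 46.0 to 211 and 39.3 to 218. The member nearest the limit was 1027 bp from the Txlnb TSS (signal 130), and the nearest peak beyond it was 994 bp from that of Kcnj1, a potassium channel gene (signal 157).

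Members divide into 471 with 1 changed end and 67 with both ends changed, and the 1-change spellings were the ones concentrated at summits. In the summit windows of all 13225 distal peaks there were 488 matches with 1 changed end, against 101 per equal window set placed 200 to 300 bp to each side and averaged, a ratio of 4.83 (95% interval 4.10 to 5.69). Over single spellings with 1 changed end the ratio ran from 0.667 for TTAATATTAG, with 1 match at summits, to 8.78 for TTATTTTTAG. For several of these spellings the interval included 1. Matches with both ends changed numbered 71 at summits, against 112 in the flanks, a ratio of 0.634 (0.485 to 0.828), so this group was scarcer at summits than beside them. The strict form numbered 550 against 27.5, a ratio of 20 (15.2 to 26.4). Mean GC was 47.7% at summits and 45.3% in the flanks, and the part of base composition in these ratios was not tested. The looser form as a whole had 559 matches at summits and 213 in the flanks, a ratio of 2.62 (2.31 to 2.98).

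**Figure D2:**
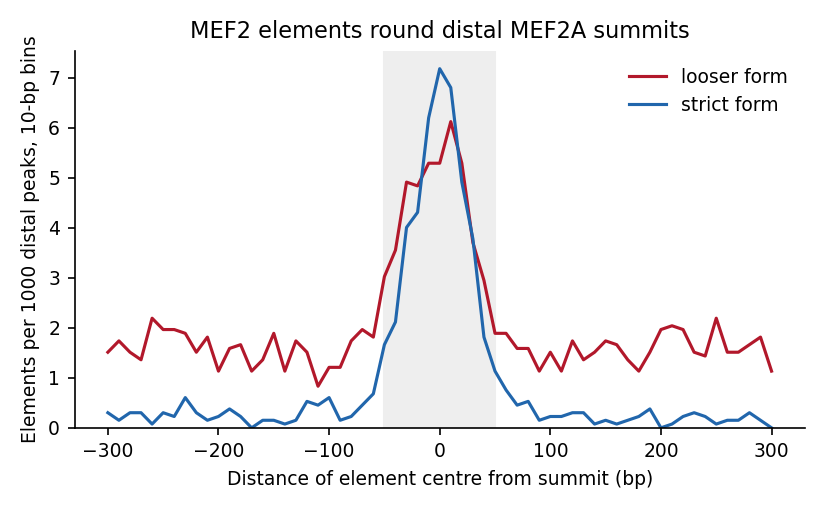
Elements per 1000 distal peaks in 10-bp bins (y axis) by distance of the element centre from the summit in bp (x axis), with the 50 bp on each side that the choice of members used in grey. The looser form has 5.29 in the central bin and is highest in the bin at 10 bp, with 6.12, over a flank level of 1.70. The strict form is highest in the central bin, with 7.18 over 0.210.

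The ratio for the looser form followed peak strength. It was 3.48 (2.77 to 4.38) in the strongest quintile, then 2.72, 2.56 and 2.19, and 1.65 (1.17 to 2.31) in the weakest. The weakest quintile had 61 looser matches at its summits and 37 in its flanks, and the counts do not tell which of the 59 weakest members hold a match of the number found beside summits.

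**Figure D3:**
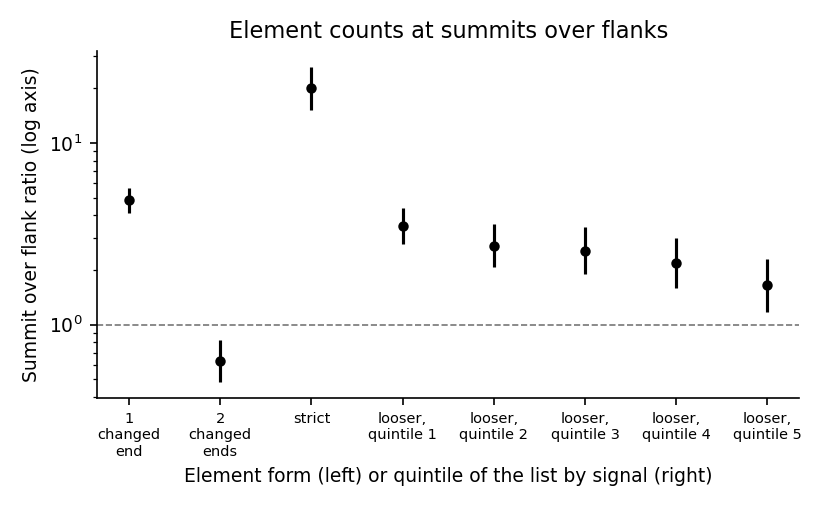
Ratio of element counts at summits to those in flanks (y axis, log scale) for each form over all distal peaks, and for the looser form in each quintile of the list by signal (1 strongest), with 95% intervals of counting error. The dashed line is a ratio of 1, which only matches with both ends changed lie below.

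Spelling separated the members further. The commonest nearest elements are printed here, each in the orientation with T at the start, with the strict spelling of the same middle bases for comparison.
T-run, 1 changed end: TTATTTTTAG
A-run, 1 changed end: TTAAAAATAG
T-run, both ends changed: TTATTTTTAA
T-run, strict: CTATTTTTAG
The first was the nearest element of 152 members, the second of 107 and the third of 45. These 3 hold a run of 5 T or 5 A and together made up 304 of 538 members (56.5%), against 24.3% of the 590792 looser genome matches with no distal summit. The first had 158 matches at summits, against 18 in the flanks (ratio 8.78, interval 6.11 to 12.6), and the second 110 against 20 (5.5, interval 3.83 to 7.90). The third had 47 against 33.5 (1.40, interval 0.966 to 2.04), an interval that includes 1. In the strongest quintile were 63 of the 152 members with the first (41.4%, interval 33.9 to 49.4), 34 of 107 with the second (31.8%, interval 23.7 to 41.1) and 16 of 45 with the third (35.6%, interval 23.2 to 50.2), and these intervals overlap. Next in number were TTATAAATAG, nearest in 41 members, TTATTTATAG, in 36, and TTATATTTAG, in 25. All 26 possible looser spellings were searched, and 23 occurred in members. The absent spellings, TTAATATTAA, TTATATATAA and TTATTAATAA, have both ends changed.

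Measured against the genome, a looser match was at a distal summit far less often than a strict one. Of 591351 looser matches more than 1 kb from a TSS, 559 had a distal summit within 50 bp, or 94.5 per 100000. The strict form had 550 of 56857, or 967 per 100000. The ratio was 0.0977 (95% interval 0.0869 to 0.110, two-sided Fisher's exact test, p = 6.19e-273). Matches with 1 changed end reached 200.1 per 100000 and those with both 20.4, a ratio of 9.79 (7.63 to 12.6, Fisher's exact test, p = 1.84e-113). No background was taken off these shares. Equal window sets beside summits held 213 looser matches, 112 with both ends changed and 27.5 strict ones, against 559, 71 and 550 at summits. Matches in repeats are among those counted, and their part was not tested.

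Within one set of middle bases the order was the same. For the T-run the strict spelling CTATTTTTAG had 1620 occupied per 100000, while TTATTTTTAG had 588, a ratio to strict of 0.363 (0.294 to 0.449). TTAAAAATAG, which is the same T-run read from the other strand and with its other end changed, had 377, a ratio of 0.233 (0.184 to 0.295). TTATTTTTAA had 53.3, a ratio of 0.0329 (0.0239 to 0.0453), from 47 matches at summits where the flanks held 33.5. For the middle of the Zbtb20 element, TTATTTATAG had 232 and TTATAAATAG 283, against 1367 for the strict CTATTTATAG. Each of the 26 looser spellings had a lower occupied share than the strict spelling with its middle bases, though for TTAATATTAG, with 1 occupied match, the interval of the ratio includes 1, and the 3 spellings with none occupied have none.

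**Figure D4:**
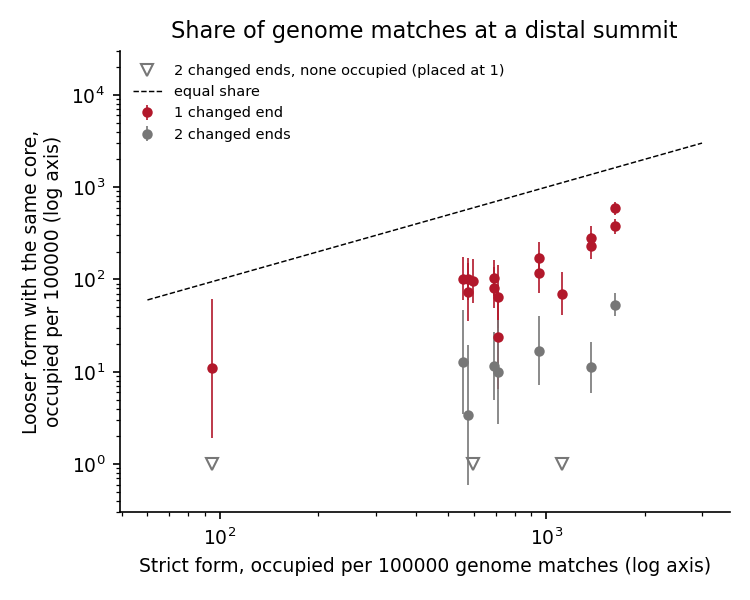
Occupied matches per 100000 genome matches for each looser spelling (y axis, log scale) against the strict spelling with the same middle bases (x axis, log scale). Occupied means a distal summit within 50 bp, with no background taken off. Bars are 95% Wilson intervals, open triangles at 1 mark the 3 spellings with none occupied, and the dashed line marks equal shares, which every looser spelling lies below.

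Bases just outside the element also differed between members and unoccupied matches. Among the 471 members with 1 changed end, read with T at the start, the base before the element was G in 37.6% (interval 33.3 to 42.0) and A in 12.1% (9.46 to 15.4), against 17.4% and 28.6% in unoccupied genome matches of these spellings. The base after it was C in 36.1% (31.9 to 40.5) of members and 16.8% of unoccupied matches. C before the element (13.0% of members, 14.5% of unoccupied matches) and G after it (10.6% and 18.7%) were not more frequent in members. Genome matches with 1 changed end were occupied at 126 per 100000 with an A or T on both sides, at 205 with 1 neighbouring G or C, and at 485 (407 to 579) with a G or C on both sides. At 2 and 3 bases before the element G was present in 29.3% and 32.3% of members, against 14.2% and 15.6% of unoccupied matches, and 3 bases after it C was present in 26.8% of members and 14.7% of unoccupied matches. The GC content of the surroundings of unoccupied matches was not measured.

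Elements of members lay a little farther from the summit than strict ones. The median distance of the element centre was 18.5 bp in members and 15.5 bp in strict-form peaks. It was 15 bp or less in 215 members (39.96%) and 269 strict-form peaks (49.1%), a difference of -9.12 points (interval -14.9 to -3.21, adjusted p = 0.0249, Fisher's exact test), which was lost when peak middles were used in place of summits (adjusted p = 0.811). Beyond 30 bp were 26.2% of members and 17.7% of strict-form peaks. Within the members, 71 of 192 in the strongest quintile had the element this near (37.0%, interval 30.5 to 44.0), against 103 of 229 in the lower 3 quintiles (45.0%, interval 38.7 to 51.5), and the intervals overlap. A second element that shares no base with the first was present in 7 members and 14 strict-form peaks, which did not pass (adjusted p = 0.463, Fisher's exact test; difference interval -3.07 to 0.45 points). Outside the summit window, 5 members had a strict element elsewhere in the peak interval.

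The members were mostly far from genes' starts. Their median distance to a TSS was 24217.5 bp, 398 (74.0%) were more than 10 kb away, 158 (29.4%) more than 50 kb and 83 (15.4%) more than 100 kb. Introns held 286 members (53.2%), exons 8 (1.49%), and 244 (45.4%) lay outside genes. Introns held 46.8% of peaks without the element, 6.39 points fewer than of members (interval 2.08 to 10.7, adjusted p = 0.00953, Fisher's exact test). Exons held 1.49% of members and 3.32% of peaks without the element (adjusted p = 0.0301, Fisher's exact test), a call lost under 4 of the 6 alternative settings. Members had another summit within 5 kb less often than peaks without the element, in 174 cases (32.3%) against 40.2% (difference interval -11.8 to -3.72 points, adjusted p = 0.000916, Fisher's exact test). None of the 5 location shares nor this clustering passed against strict-form peaks: the difference in introns was 1.34 points (interval -4.59 to 7.25), and in neighbouring summits -0.14 points (interval -5.69 to 5.42). Over the 20 chromosomes, members were between 2.5% and 6.42% of distal peaks, the highest share being that of chromosome 13 (38 of 592, interval 4.71 to 8.69).

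Consensus motifs of 20 other factor groups were searched in the 101-bp windows on both strands, and matches that share a base with a MEF2 element were not counted. At least 1 was present in 320 members (59.5%) and none in 218. Peaks without the element hold no MEF2 match, so against them leaving out overlapping matches could lower the counts of members only. With overlapping matches counted, 1 of the 20 motifs was more frequent in members and 4 were less frequent. With them left out, no motif was more frequent than in peaks without the element (0% of 20) and 5 were less frequent (25% of 20). These were the NF-kB motif (4.46% of members, 8.20% of peaks without the element, adjusted p = 0.0114, Fisher's exact test), EBF1 (CCCNNGGG; 3.72% and 7.04%, adjusted p = 0.0114, Fisher's exact test), E2A (CAGGTG; 7.06% and 11.3%, adjusted p = 0.0114, Fisher's exact test), RUNX (TGTGGTT; 4.09% and 7.26%, adjusted p = 0.0141, Fisher's exact test) and CTCF (1.67% and 4.05%, adjusted p = 0.0141, Fisher's exact test). EBF1 and E2A specify B cells, RUNX factors act across blood lineages, NF-kB dimers respond to antigen and cytokine receptors, and CTCF marks chromatin loop anchors. In windows of 35 to 50% GC none of these 5 passed. The difference there was -3.10 points for RUNX (interval -4.97 to -0.40, unadjusted p = 0.0278, Fisher's exact test), against -3.17 in all windows, while it was -1.98 for NF-kB, -1.87 for E2A, -0.12 for CTCF and -0.07 for EBF1. In this GC range 2 others passed: AP-1 (10.9% of members, 17.2% of peaks without the element, adjusted p = 0.00704) and IRF (1.77% and 5.56%, adjusted p = 0.00674, Fisher's exact tests). The set of motifs that passed thus differed between all windows and this GC range.

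The commonest motifs in members were AP-1 (TGANTCA, bound by JUN, FOS and BATF dimers), in 66 members (12.3%, against 14.9% of peaks without the element), and NF-Y (CCAAT), in 50 (9.29%, against 9.41%). AP-1 members were in the strongest quintile in 31 of 66 cases (47.0%) and NF-Y members in 19 of 50 (38%), against 35.7% of all members. Over the 20 motifs this share ran from 0% (SRF, 3 members) to 62.5% (forkhead, 8 members). Differences between motifs in this share were not tested. The octamer (ATGCNAAT, bound by OCT2 and related factors) was present in 27 members (5.02%), 14 strict-form peaks (2.55%) and 4.34% of peaks without the element. It can be read in the Dgkg sequence printed above, beside the element. The remaining motifs, none of which passed over all windows, are given with their share of members and of peaks without the element. The myeloid and B cell factor PU.1, with the motif GAGGAAG, had 31 members (5.76% and 7.59%). The calcium-dependent NFAT factors, with TGGAAAA, also had 31 (5.76% and 4.42%). Dimers of STAT proteins, which follow cytokine receptors, had 28 members with TTCNNNGAA (5.20% and 3.98%), and the composite of ETS and IRF factors had 20 (3.72% and 5.21%). The cyclic AMP response factor CREB had 17 members with TGANGTCA (3.16% and 5.49%). Homeodomain proteins had 13 members with TAATTA (2.42% and 1.45%), and the haematopoietic GATA factors had 11 with AGATAA (2.04% and 3.50%). Forkhead proteins such as FOXO had 8 members with TGTTTAC (1.49% and 1.08%), and the zinc finger protein YY1 had 7 with AANATGGC (1.30% and 1.34%). Other ETS family proteins had 4 members with CCGGAAG (0.74% and 1.30%), and SRF, the related MADS-box protein, had 3 (0.56% and 1.01%). IRF motifs were in 12 members (2.23% and 4.23%). Against strict-form peaks, 0% of the 20 motifs were more frequent and 0% less frequent. For the octamer the unadjusted p was 0.0382 and the adjusted p 0.437 (Fisher's exact test, difference interval 0.17 to 4.88 points), and it was the only motif of the 20 with an unadjusted p this low.

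Members were spread over 512 nearest genes, of which 488 had 1 member, 22 had 2 and 2 had 3. The genes with 3 were Trib1, a pseudokinase that directs proteins to degradation, and Tet2, which oxidizes methylcytosine and is often lost in blood cancers. The Trib1 members had signals of 381, 173 and 90.2, and the Tet2 members 285, 76.3 and 48.0. The first Trib1 member lay 147213 bp downstream of its TSS. The others lay 123052 and 119312 bp upstream of it, in introns of Nsmce2. Of 13 gene lists with 254 genes in all, chosen with earlier results of these data known, 29 members (5.39%) had a listed nearest gene, against 6.91% of all distal peaks. Lymphoid zinc finger, RUNX and HIVEP factors had 8 members at 7 of 14 genes (1.49%, against 1.05% of distal peaks). Beside the peaks at Zbtb20 and Zbtb16 these were near Zbtb7b (signal 105), which directs CD4 T cell fate, the large zinc finger factor Hivep2 (66.6), a second site at Zbtb20 (58.9), Hivep1 (58.3), the plasma cell regulator Prdm1 (56.6) and Runx1 (47.2). Immediate early genes had 6 members at 6 of 29 genes (1.12%, against 1.19%), led by Zfp36l1 (582), the Krüppel-like factors Klf6 (404) and Klf4 (319), and the phosphatase gene Dusp1 (102).

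The remaining lists had 3 members or fewer each, at shares given beside those of all distal peaks. MEF2 and class IIa deacetylase genes had 2 members (0.372%, against 0.302%), at Hdac7 and 437725 bp upstream of Mef2c (signal 316), the MEF2 gene most used in B cells. A further member in an intron of Hdac7 (signal 260, rank 802) was not counted there, since its nearest gene was Gm17532. B cell identity genes had 3 (0.558%, against 0.960%), at Ebf1 (331), the surface receptor Cd22 (98.3) and Ikzf1 (46.0), which encodes Ikaros. Calcium signal genes also had 3 (0.558%, against 0.408%), at the kinase gene Camk2d (247 and 55.1) and the calcium channel gene Itpr1 (103). Migration genes had 3 (0.558%, against 0.461%), at S1pr1 (143), the integrin gene Itgb1 (109) and the chemokine receptor gene Cxcr4 (103), which is on the germinal centre list too. Germinal centre genes had 2 (0.372%, against 0.499%), the second at Rgs13 (247), a brake on chemokine signalling. NF-kB genes had 2 (0.372%, against 0.612%), at Tnfaip3 (594) and the adaptor gene Traf1 (82.2). BCL2 family genes had 1 (0.186%, against 0.507%), at Bcl2l11 (106), which encodes the death inducer BIM. B cell receptor signalling genes had no member among 92 distal peaks, and the T cell, striated muscle and neuronal lists none among 39, 27 and 6. A list share of 0 of 538 has an upper Wilson limit of 0.709%, while B cell receptor signalling genes took 0.696% of distal peaks, so a lower share was not detectable with this number of members.

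The replicates were read on mm10, where each has a list of 300000 ranked candidate peaks. The mm9 list was made from these same replicates, so recovery and ranks in them are no independent check of it. Members were matched to it without converting coordinates, by the distance from the boundary of a gene that has the same span in both builds, within 50 bp. This could be done for 416 of 538 members. Of these, 362 (87.0%, interval 83.4 to 89.9) were found in replicate 1, 398 (95.7%, interval 93.3 to 97.2) in replicate 2, and 349 (83.9%, interval 80.1 to 87.1) in both. The optimal reproducible set, with 31497 peaks, held 394 (94.7%). Positions this near a summit make up 1.15% of the genome in a replicate list and 0.121% in the optimal set. Among joined peaks without the element, 71.6% were found in both replicates, and among strict-form peaks 89.1%.

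Several strong members ranked high in both replicates, whose data also gave the mm9 ranks by which they were called strong. Erg was at ranks 44 and 54 in replicates 1 and 2, Rnft1 at 30 and 31, Hdac7 at 46 and 124, Tnfaip3 at 155 and 116, and Il13 at 166 and 219. Others differed more: Dgkg was at ranks 31 and 216, Cth at 100 and 22, and Sept11 at 75 and 388. The Zbtb20 peak was rank 1 in replicate 1 and in the optimal set and had no replicate 2 summit within 50 bp. Over the 349 members in both lists, Spearman's rho of the ranks was 0.848, given as a description, and 243 (69.6%) had ranks within 2-fold. The better rank was in replicate 2 for 219 and in replicate 1 for 129. The first 3367 peaks of replicate 1 held 134 of 416 members (32.2%) and 19.0% of peaks without the element (adjusted p = 8.31e-10, Fisher's exact test). Those of replicate 2 held 147 (35.3%) and 20.3% (adjusted p = 1.71e-11, Fisher's exact test). Neither replicate alone separated members from strict-form peaks: the differences were -3.96 points (interval -10.3 to 2.46, adjusted p = 0.244) and -6.51 points (interval -13.0 to 0.08, adjusted p = 0.0744, Fisher's exact tests).

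**Figure D5:**
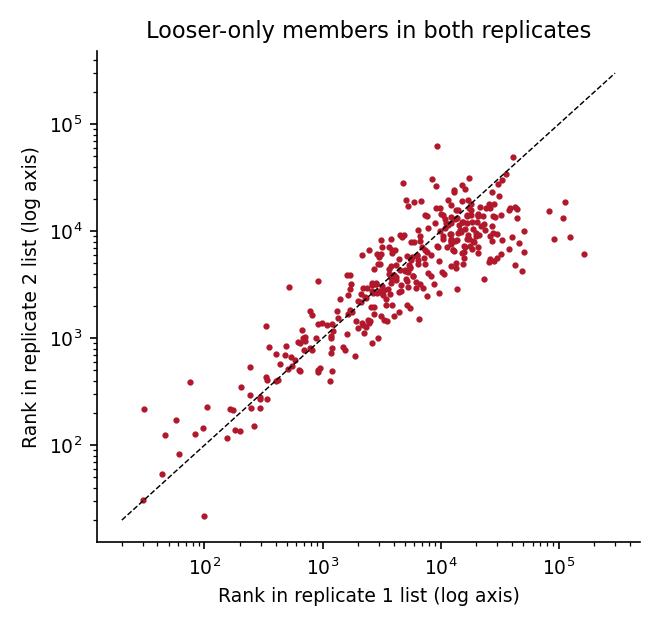
Rank of each of the 349 members found in both replicates, in the replicate 1 list (x axis, log scale) and the replicate 2 list (y axis, log scale), where rank 1 is the strongest peak. The dashed line marks equal ranks, and 219 members lie below it, with the better rank in replicate 2.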

How the data were processed

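MEF2A ChIP-seq peak lists of 2 replicates were used as deposited: 1 on mm9 from both replicates together, and on mm10 a relaxed list per replicate, a pooled list and the optimal and conservative reproducible sets. Per the file headers and labels, mm10 lists used a control library, and none is named for mm9. The sources used here name no peak caller or aligner. The signal of each peak was deposited by the authors and was used to rank peaks within a list only. Sequence, transcripts and TSSs came from NCBIM37 and GENCODE vM1, and chromosome ends of the list lay within it on all 20 chromosomes. Coordinates are 1-based.

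Elements and motifs were matched exactly on both strands with Python 3.11.15, numpy 2.4.6, pandas 2.3.3, scipy 1.17.1, pysam 0.24.0 and matplotlib 3.10.9. Shares have 95% Wilson intervals, differences have Newcombe intervals, and ratios have log-scale intervals, all for counting error only. Fisher's exact tests were two-sided with Benjamini-Hochberg adjustment over the comparisons, or the 20 motifs, with the same reference class, at 0.05. The class calls and motif tests were tried on simulated windows with planted motifs and elements, strict or with 1 changed end. A planted looser element called strict counted as found. Elements with both ends changed, occupied shares, flank counts and the mm10 match were not simulated. For mm10, gene boundaries with spans equal within 10 bp in GENCODE vM1 and the RefSeq table of GRCm38.p6 and within 300 kb of the summit were used. Named peaks were the 20 strongest members, up to 4 per gene list, genes with 3 members, peaks at the 1 kb limit and the commonest spellings, with further list genes added after their values were seen. Members and lists were chosen with earlier results of these data known.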

Additional observations from a re-analysis of the deposited data

How the results depend on the processing

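The larger share of members than of peaks without the element in the strongest quintile held under all 11 alternatives (9.61 to 15.1 points). The smaller share than in strict-form peaks did not. It missed the threshold with a 25-bp window (-10.6 points, adjusted p = 0.0705, Fisher's exact test), with limits of 500 bp (-7.50, p = 0.0543) and 5 kb (-6.41, p = 0.183), with TSSs of all transcripts (-6.87, p = 0.120), from interval middles (-8.23, p = 0.0613) and in windows of 35 to 50% GC, added after seeing the data (-5.25, p = 0.647). Left to 1 replicate, also added afterwards, it ran from -6.51 to -3.96 points. The share of elements within 15 bp of the summit differed by -7.53 points in the 25-bp window (p = 0.150), by -2.86 from interval middles (p = 0.811) and by -6.86 when 25 bp counted as near (p = 0.0736, exact tests). The exon share against peaks without the element lost its call in the 25-bp window (-1.64, p = 0.192), at 500 bp (-1.50, p = 0.0996), at 5 kb (-1.56, p = 0.0601) and with all transcripts (-1.34, p = 0.0792, exact tests). The share outside genes passed at 5 kb (-5.75, p = 0.0279) and from interval middles (-5.22, p = 0.0293, exact tests). Motifs less frequent than in peaks without the element numbered 3 with the 25-bp window, 3 from interval middles and 2 in the GC range, and 1 was more frequent with a 100-bp window or with overlapping matches counted. All these p-values are adjusted, from Fisher's exact tests, and the cause of each change was not tested. Ratios of occupied shares ran from 0.0876 to 0.148 for looser against strict forms and from 4.83 to 10.4 for 1 against both ends changed. Recovery on mm10 ran from 87.0% to 95.7% in single replicates. Of 166 alternative values, 143 stayed on the same side of the threshold or, for counts, within 1.5 times. The sign changed in 13 of the 166, and in none of these did either value pass. Among them was the difference of 1 against both ends changed in the strongest quintile, 4.96 points, which was -8.27 in the 25-bp window, -2.62 for the strongest 50% of the list, -1.58 in the GC range and -0.51 from interval middles. The comparison outside soft-masked repeats was not run, since the reference used marks none. No paired analysis was possible because the 2 replicates form 1 group.

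Precision is limited by the number of peaks, as read depth is unknown. The 67 members with both ends changed allow differences from 1 changed end in the strongest quintile of -7.63 to 15.8 points. The mm10 match leaves out 122 members.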

Other observations

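Distal peaks with the 8 middle bases of the element but without a consensus base at both ends numbered 635. Of these, 38.9% (interval 35.2 to 42.7) were in the strongest quintile, with a median signal of 79.2. They are counted above among the peaks without the element. The list has 6 members among its 100 strongest peaks and 13 strict-form peaks.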
